A study of Oryza sativa with 2 samples.

Results

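Superoxide dismutases (SODs) were followed at the level of mRNA in leaves of heat-grown rice seedlings. The family was taken as the 6 loci annotated as copper/zinc, iron or manganese SOD that were listed for this comparison, and each of the 6 has at least 1 transcript model in the deposited expression table. They are 6 of the 26715 loci of that table. The 3 copper/zinc loci are LOC_Os03g22810 and LOC_Os07g46990, both annotated as copper/zinc superoxide dismutase 1, and LOC_Os08g44770, annotated as copper/zinc superoxide dismutase 2. The 2 iron loci are LOC_Os06g02500 (Fe superoxide dismutase 2) and LOC_Os06g05110 (Fe superoxide dismutase 3), and LOC_Os05g25850 is the manganese locus. The members were chosen by annotation and not by their levels, though with earlier results of these data known.

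SODs convert the superoxide anion into oxygen and hydrogen peroxide, and each type does so with a different metal at its active site. In plants, copper/zinc enzymes are found in the cytosol and in the chloroplast stroma, the manganese enzyme works in mitochondria, and the iron enzymes are chloroplast proteins. In Arabidopsis, FSD2 and FSD3 sit at the chloroplast nucleoid and belong to the proteins that associate with the plastid-encoded RNA polymerase (PEP), the complex that transcribes photosynthesis genes and that also contains FLN1, the Arabidopsis counterpart of WLP2. The question behind the comparison is which transcripts of superoxide removal differ between *wlp2s* and wild-type leaves at 32 °C, a temperature at which the mutant is albino.

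The mutant *wlp2s* carries a single-base change in *WLP2* (LOC_Os01g63220) and came from an EMS-treated population of *japonica* rice cv. Zhonghua11, and the wild-type was cv. Zhonghua11. Both were raised as seedlings on MS medium at a constant 32 °C, with 12 h of light (300 μmol m-2 s-1) and 12 h of dark. Leaf RNA gave 1 library per genotype, and the number of plants in each is not given in the sources used here. Since only 1 mutant line was sequenced, the effect of *wlp2s* and that of any other change in the line cannot be told apart, and the spread between plants of a genotype is unknown, so no difference below carries a p-value. The label of the mutant sample gives the gene and not the allele, and the name *wlp2s* comes from the columns of the expression table. A second deposited table, not used here, heads its mutant columns wlp1, and which name is right could not be settled from the files.

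Depth was 9327778 counts in *wlp2s* and 9080323 counts in wild-type. *WLP2* itself stood at 9.10 RPKM (reads scaled to transcript length and to the depth of the library) in the library labelled *wlp2s* and 6.61 RPKM in the library labelled wild-type, so the mutated gene was not lower in the library labelled mutant. The table gives levels and not bases, so the single-base change could not be looked for, and these files hold no check of which library is the mutant. In what follows *wlp2s* and wild-type mean the libraries so labelled, and the direction of every difference rests on those labels. All 33 loci of the leaf mesophyll markers (small subunits of Rubisco, antenna proteins and photosystem subunits) were at 1 RPKM or more in at least 1 library (LOC_Os07g05365 only in *wlp2s*) and together reached 30952 RPKM in *wlp2s* and 33046 RPKM in wild-type. The size rule was a difference of log2(RPKM + 1) of 1 or more in either direction. It was passed by 1 of the 33, beside 2.8% of all loci with at least 1 RPKM in at least 1 library. This was the antenna protein locus LOC_Os04g38410, at 145 RPKM in *wlp2s* and 364 RPKM in wild-type. Of the 33 loci, 21 were lower in *wlp2s* and 12 were higher. The antenna locus LOC_Os01g41710 came close to the rule, at 448 RPKM in *wlp2s* and 884 RPKM in wild-type. Markers of roots summed to 305 RPKM in *wlp2s* and 235 RPKM in wild-type over the 10 of 17 loci that reached 1 RPKM in at least 1 library. All are phosphate and nitrate transporters. Levels were higher in *wlp2s* at 9 of the 10, and the median difference over all loci examined was 0.0018. The 1 lower in *wlp2s* was LOC_Os01g36720 (high affinity nitrate transporter 2.7), at 53 counts in *wlp2s* and 115 counts in wild-type. LOC_Os03g05620, a phosphate transporter, was at 170 RPKM in *wlp2s* and 137 RPKM in wild-type. Counts of the phosphate transporters are in part fractions, so their reads were divided and these loci are not separate observations. The list was drawn by description, and whether its loci mark root tissue was not tested. Of the loci below 1 RPKM, the nitrate transporter 2:1 loci LOC_Os02g02170 and LOC_Os02g02190 were at 0 counts in *wlp2s* and at 0.333 counts each in wild-type. Markers of dividing cells summed to 46.2 RPKM in *wlp2s* and 52.1 RPKM in wild-type over the 4 of 10 loci that reached 1 RPKM in at least 1 library. All 4 are minichromosome maintenance genes and were lower in *wlp2s*, each by a margin within the error of counting reads. Those below 1 RPKM went both ways, with LOC_Os12g37400 at 3 counts in *wlp2s* and 0 counts in wild-type, and LOC_Os04g47580 (cyclin B2;4) at 0 and 2 counts. Senescence markers summed to 891 and 1074 RPKM in *wlp2s* and wild-type over 17 loci, 9 lower and 8 higher in *wlp2s*. The size rule was passed by 1 of the 17, again beside 2.8% of loci, namely LOC_Os03g54130 (senescence-associated gene 12). It was at 140 RPKM in *wlp2s* and 320 RPKM in wild-type. The part of these marker levels in the SOD values was not tested. In leaf RNA, fewer cells of a type and less RNA per cell cannot be told apart.

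The cytosolic copper/zinc enzyme dominated the SOD transcripts of both genotypes. LOC_Os03g22810 was at 440 RPKM in *wlp2s* and 380 RPKM in wild-type, which ranked it 132nd and 152nd among all loci by level. It made up 61.8% of the summed SOD level in *wlp2s* and 60.0% in wild-type. The other members followed at a distance, with the next one 5.25-fold below it in *wlp2s* and 5.39-fold below it in wild-type. The 2 iron loci were at the bottom of the order in both libraries.

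**Figure D1:**
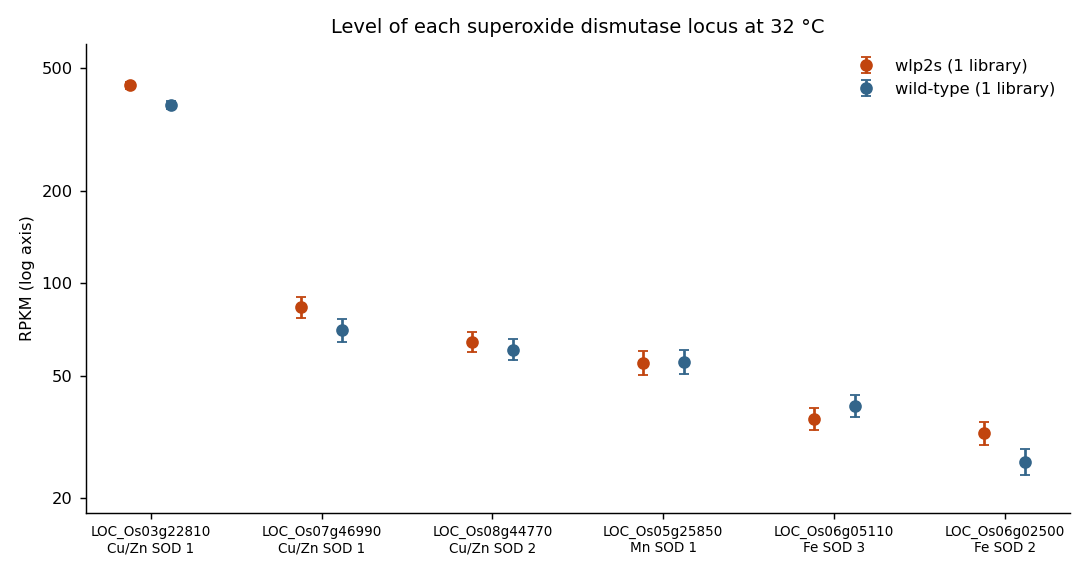
Level of each SOD locus in RPKM (log axis) in the *wlp2s* library (left point of each pair) and the wild-type library (right point), with bars for exact 95% Poisson intervals, which cover counting error only. LOC_Os03g22810 stands alone near the top at 440 and 380 RPKM, and the iron locus LOC_Os06g02500 is lowest at 32.6 and 26.2 RPKM.

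The order of the levels was the same in both libraries, namely LOC_Os03g22810, LOC_Os07g46990, LOC_Os08g44770, LOC_Os05g25850, LOC_Os06g05110 and LOC_Os06g02500. Some neighbours in it could not be separated at this depth. The plastid copper/zinc locus LOC_Os08g44770 and the manganese locus LOC_Os05g25850 had overlapping counting intervals in *wlp2s* (59.9 to 69.4 and 50.5 to 60.3 RPKM) and in wild-type (56.5 to 65.7 and 50.9 to 60.9 RPKM). The iron loci overlapped in *wlp2s* (33.3 to 39.5 RPKM for LOC_Os06g05110 and 29.9 to 35.5 RPKM for LOC_Os06g02500) but not in wild-type (36.7 to 43.3 and 23.8 to 28.9 RPKM). LOC_Os07g46990 and LOC_Os08g44770 had separate intervals in *wlp2s*, and overlapping ones in wild-type. These intervals do not include the spread between plants.

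None of the 6 SOD loci differed strongly between the genotypes. The measure was log2(RPKM + 1) in *wlp2s* minus log2(RPKM + 1) in wild-type, and a locus passed the size rule where this value was 1 or more, or -1 or less. By this rule 0 of the 6 members were higher and 0 were lower, against a background of 1.79% of loci higher and 1.01% lower, 2.8% in either direction, among the 18639 loci with at least 1 RPKM in at least 1 library. All 6 members passed that filter on low levels in both libraries. Their differences ran from -0.13 to 0.30 with a median of 0.15, beside a median of 0.0018 over all 18639 loci. The difference was above 0 at 4 members and below 0 at 2.

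The family as a whole was slightly higher in *wlp2s*, and the copper/zinc type carried most of this. Reads of all 6 loci came to 7753 counts in *wlp2s* and 6727 counts in wild-type, a ratio scaled to depth of 1.12 with an exact 95% binomial interval of 1.09 to 1.16. The ratio was 1.15 (1.11 to 1.19) for the copper/zinc type, 1.05 (0.962 to 1.15) for the iron type and 0.999 (0.881 to 1.13) for the manganese type. Copper/zinc loci took up 82.6% of the summed SOD level in *wlp2s* and 80.8% in wild-type, iron loci 9.67% and 10.4%, and the manganese locus 7.76% and 8.80%. Without LOC_Os03g22810 the remaining 5 loci had a ratio of 1.07 (1.01 to 1.13). The intervals cover counting error only, so a ratio whose interval lies off 1 differs between these libraries and is not shown to differ between the genotypes.

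Both cytosolic copper/zinc loci were higher in *wlp2s*. LOC_Os03g22810, on chromosome 3, had 4821 counts in *wlp2s* and 4056 counts in wild-type, a ratio of 1.16 (1.11 to 1.21). LOC_Os07g46990, on chromosome 7 and with the same description, was at 83.8 RPKM in *wlp2s* and 70.5 RPKM in wild-type, a ratio of 1.18 (1.05 to 1.33) from 623 and 512 counts. The deposited gene ontology terms place both in the cytosol. The ratios of these loci differed by a factor of 1.02 with an interval of 0.903 to 1.16, the range of differences in response that counting error leaves possible.

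The copper/zinc locus of the plastid had a lower ratio than the cytosolic ones, by a margin within counting error. LOC_Os08g44770, on chromosome 8, is annotated to plastid and thylakoid and is the counterpart of the Arabidopsis chloroplast enzyme CSD2. It was at 64.5 RPKM in *wlp2s* and 61.0 RPKM in wild-type, from 735 and 676 counts, and its ratio of 1.06 has an interval of 0.952 to 1.18 that includes equal levels. Its response was not distinguishable from that of LOC_Os03g22810 at this depth, with a ratio of the ratios of 1.09 (0.975 to 1.23) in favour of the cytosolic locus. Its 2 transcript models of 1227 and 1215 bases had ratios of 1.06 each.

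The manganese locus was level between the genotypes. LOC_Os05g25850, on chromosome 5 and annotated to the mitochondrion, was at 55.2 RPKM in *wlp2s* and 55.7 RPKM in wild-type, from 507 and 494 counts. Its ratio of 0.999 has an interval of 0.881 to 1.13. Its first model (1064 bases) held 68.5% of the counts of the locus in *wlp2s* (exact 95% binomial interval 64.4 to 72.7%) and 65.3% in wild-type (60.8 to 69.4%), and these intervals overlap.

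The iron loci, the members related to PEP partners, differed from each other in direction. LOC_Os06g02500 had the largest ratio in the family, with 32.6 RPKM in *wlp2s* and 26.2 RPKM in wild-type, from 532 and 417 counts, a ratio of 1.24 (1.09 to 1.42). LOC_Os06g05110 was at 36.3 RPKM in *wlp2s* and 39.9 RPKM in wild-type, from 535 and 572 counts, a ratio of 0.911 (0.808 to 1.03) whose interval includes equal levels. The level of LOC_Os06g02500 was therefore 0.897 of that of LOC_Os06g05110 in *wlp2s*, and 0.657 of it in wild-type. Both are annotated to the plastid and both lie on chromosome 6. Both models of LOC_Os06g05110 had ratios under 1, at 0.901 (1480 bases) and 0.921 (1699 bases).

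LOC_Os06g02500 had the highest ratio of the members and LOC_Os06g05110 the lowest, so their contrast had to be the largest among the 15 pairs. The ratio of LOC_Os06g02500 exceeded that of LOC_Os06g05110 by a factor of 1.36, with an exact conditional interval of 1.14 to 1.63, and of 1.05 to 1.78 when the interval is widened to cover all 15 pairs jointly. Of the 15 pairs, 5 had an interval off 1 and 3 kept it off 1 under the joint interval. Each of these 3 involves LOC_Os06g05110, set against LOC_Os06g02500, LOC_Os07g46990 (factor 1.30, joint interval 1.01 to 1.67) and LOC_Os03g22810 (factor 1.27, joint interval 1.05 to 1.54). The members differ in depth, since LOC_Os03g22810 has the narrowest interval, and the pairs share members, so they are not independent. Whether the contrast between the iron loci exceeds the spread between plants of a genotype cannot be told from 1 library each. Pairs of other loci were not compared, so no share stands beside these counts of pairs. Among single loci with a mean count in the range of the members, 24.8% had an interval above 1 and 28.3% one below 1.

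**Figure D2:**
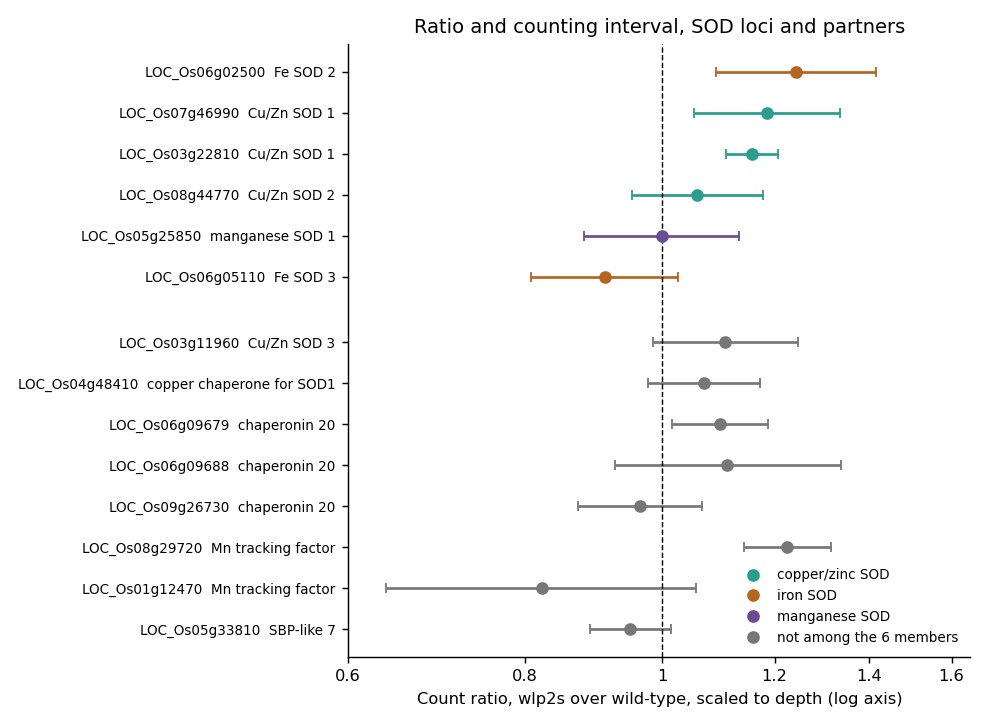
Ratio of counts in *wlp2s* over wild-type, scaled to depth (log axis), with exact 95% binomial intervals for counting error; the dashed line marks equal levels. Among the 6 members, above the gap and ordered by ratio, LOC_Os06g02500 is highest at 1.24 and LOC_Os06g05110 lowest at 0.911, and the grey points are a further SOD locus and partners of the family.

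Differences of this size were common in the table. A counting interval above 1 was found for 3 of the 6 members, beside 16.1% of all loci examined, and an interval below 1 for 0 of the 6, beside 15.4% of all loci. Among the 3797 loci with a mean count in the range of the members, 24.8% had an interval above 1, 28.3% had one below 1, and 0.922% passed the size rule. Set by size against all loci, LOC_Os06g02500 had a larger difference elsewhere at 31.8% of loci, LOC_Os07g46990 at 40.4% and LOC_Os03g22810 at 46.9%. The manganese locus, at the other end, had a larger difference elsewhere at 96.5% of loci. The 3 members with the higher ratios lay just above the middle 50% of all differences (-0.18 to 0.21), and the other 3 lay inside it. In the narrower set of 3797 loci with similar counts, where the middle 50% runs from -0.15 to 0.13, the 3 higher members again lay above it and the other 3 inside it. Among all loci, each of the 6 lay between the 5th and 95th percentiles (-0.54 and 0.67).

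**Figure D3:**
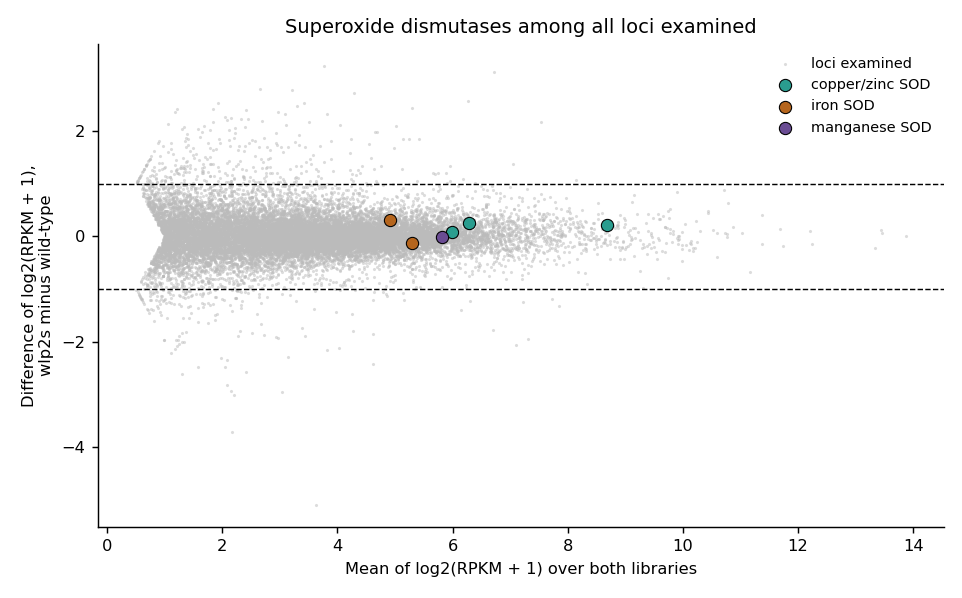
Difference of log2(RPKM + 1), *wlp2s* minus wild-type, against the mean level over both libraries for the 18639 loci examined (grey) and the 6 SOD loci (coloured by metal), with dashed lines at the size rule of 1 in either direction. The SOD loci lie inside the dense band around 0, between -0.13 and 0.30.

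The members share functions that the choice by annotation implies and differ in others. Superoxide metabolic process, metal ion binding and oxidation-reduction process are terms of all 6. Response to stress is a term of 5 (not of LOC_Os06g02500), and response to abiotic stimulus is a term of 5 (not of LOC_Os06g05110). Response to biotic stimulus is a term of 3, the cytosolic copper/zinc loci and the manganese locus. The peroxisome pathway of KEGG lists 4 of the 6 and neither iron locus. By compartment, the 3 plastid members together had a ratio of 1.05 (0.985 to 1.13), and the 2 cytosolic members one of 1.16 (1.12 to 1.21).

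A further locus with an SOD description lies outside the 6. LOC_Os03g11960, annotated as copper/zinc superoxide dismutase 3, was at 74.4 RPKM in *wlp2s* and 68.4 RPKM in wild-type, summed over 4 models. Its ratio of 1.11 has an interval of 0.985 to 1.25. It would stand among the copper/zinc loci in level. With it 0 of 7 annotated SOD loci passed the size rule, beside 2.8% of all loci examined, with a median difference of 0.12. The counts of its models are fractions that add up to whole numbers over the locus in both libraries.

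A metal delivery list was drawn by description from metal chaperones, metal transporters and a copper regulator. Most of its descriptions do not name an SOD. Of its 30 loci examined, none passed the size rule, beside 2.8% of all loci. Some had counting intervals off 1, as did 31.5% of all loci examined. LOC_Os04g48410, annotated as the copper chaperone that loads copper/zinc SOD, was at 88.5 RPKM in *wlp2s* and 82.7 RPKM in wild-type (ratio 1.07, 0.977 to 1.17), a level of the same order as those of LOC_Os07g46990 and LOC_Os08g44770. Chaperonin 20, which in Arabidopsis assists the iron enzyme, has 3 loci with more than 1 RPKM. LOC_Os06g09679 had a ratio of 1.10 (1.02 to 1.19), LOC_Os06g09688 one of 1.11 (0.926 to 1.34) and LOC_Os09g26730 one of 0.965 (0.872 to 1.07). The counts of LOC_Os06g09679 and LOC_Os06g09688 are in part fractions, so their reads are divided with other models or loci. LOC_Os05g33810, annotated as squamosa promoter binding protein-like 7, the Arabidopsis regulator of copper deficiency, was at 62.5 RPKM in *wlp2s* and 65.8 RPKM in wild-type (ratio 0.949, 0.889 to 1.01).

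The loci annotated as a manganese tracking factor for the mitochondrial enzyme did not share a direction. LOC_Os08g29720 was at 106 RPKM in *wlp2s* and 86.4 RPKM in wild-type (ratio 1.23, 1.14 to 1.32), whereas LOC_Os01g12470 was at 9.04 RPKM in *wlp2s* and 11.0 RPKM in wild-type (ratio 0.822, 0.638 to 1.06). Over the whole metal delivery list, 0 of 30 loci passed the size rule, beside 2.8% of all loci examined, with a median difference of 0.03. Counting intervals lay above 1 at 5 of the 30 loci and below 1 at 3, beside 16.1% and 15.4% of all loci examined. LOC_Os02g10290 (heavy metal atpase 5) was at 20.5 RPKM in *wlp2s* and 13.3 RPKM in wild-type (ratio 1.53, 1.36 to 1.74). The locus farthest from 0, LOC_Os04g33900 (copper transporter 1), had only 6 counts in *wlp2s* and 15 counts in wild-type. The farthest with at least 5 RPKM was LOC_Os06g46310, a natural resistance-associated macrophage protein of the family of metal transporters, at 14.8 RPKM in *wlp2s* and 8.23 RPKM in wild-type.

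Enzymes that remove hydrogen peroxide, the product of SODs, likewise stayed within the size rule. Of 31 loci of ascorbate peroxidases, catalases, glutathione peroxidases, peroxiredoxins and the ascorbate and glutathione reductases, 0 passed it, beside 2.8% of all loci examined. Their median difference was 0.0053. Counting intervals lay above 1 at 9 loci and below 1 at 7, beside 16.1% and 15.4% of all loci examined. The locus farthest from 0, LOC_Os09g36750 (ascorbate peroxidase 3), was at 10.3 RPKM in *wlp2s* and 5.88 RPKM in wild-type, with divided reads.

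Among transcripts of PEP-associated proteins, plastid transcriptionally active proteins and sigma factors, 0 of 25 passed the size rule, beside 2.8% of all loci examined. Counting intervals lay above 1 at 7 of the 25 and below 1 at 4, beside 16.1% and 15.4% of all loci examined. These 25 include the 2 iron SOD loci. The other 23 had a median difference of 0.06 and ran from -0.55 to 0.60. *WLP2* had a ratio of 1.38 (1.09 to 1.74), LOC_Os08g29110 (thioredoxin z) one of 1.14 (0.922 to 1.42) from 187 and 159 counts in *wlp2s* and wild-type, and LOC_Os03g40550 (fructokinase-like 2) one of 1.11 (0.810 to 1.53) from 88 and 77 counts. The iron locus LOC_Os06g02500, with 1.24, lies between the ratios of *WLP2* and thioredoxin z, whereas LOC_Os06g05110, with 0.911, lies below both. The intervals of LOC_Os06g02500, *WLP2* and thioredoxin z overlap and are wide, so nothing on a shared response follows from them. The locus at 0.60, LOC_Os04g51100 (plastid transcriptionally active 17), had 17 counts in *wlp2s* and 6 counts in wild-type. The farthest with at least 5 RPKM was LOC_Os05g22614 (plastid transcriptionally active 16), at 135 RPKM in *wlp2s* and 198 RPKM in wild-type.

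Other copper proteins form a short list at these levels, with 8 loci at 1 RPKM or more in at least 1 library. Beside 2.8% of all loci, 1 of the 8 was past the size rule with a higher level in *wlp2s* and 1 with a lower level. Both reached 1 RPKM only in the library where they are high, so they had to differ and their count is no result about the list. LOC_Os03g16610 (laccase 17) had 40 counts in *wlp2s* and 8 counts in wild-type, and LOC_Os01g63190 (laccase 7) had 0 counts in *wlp2s* and 38 counts in wild-type. Plastocyanin (LOC_Os06g01210), the copper protein of photosynthetic electron transport, was at 599 RPKM in *wlp2s* and 688 RPKM in wild-type (ratio 0.870, 0.837 to 0.905). Each of the 3 copper/zinc members had a ratio above 1, but the interval of the plastid member LOC_Os08g44770 (0.952 to 1.18) included equal levels.

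**Figure D4:**
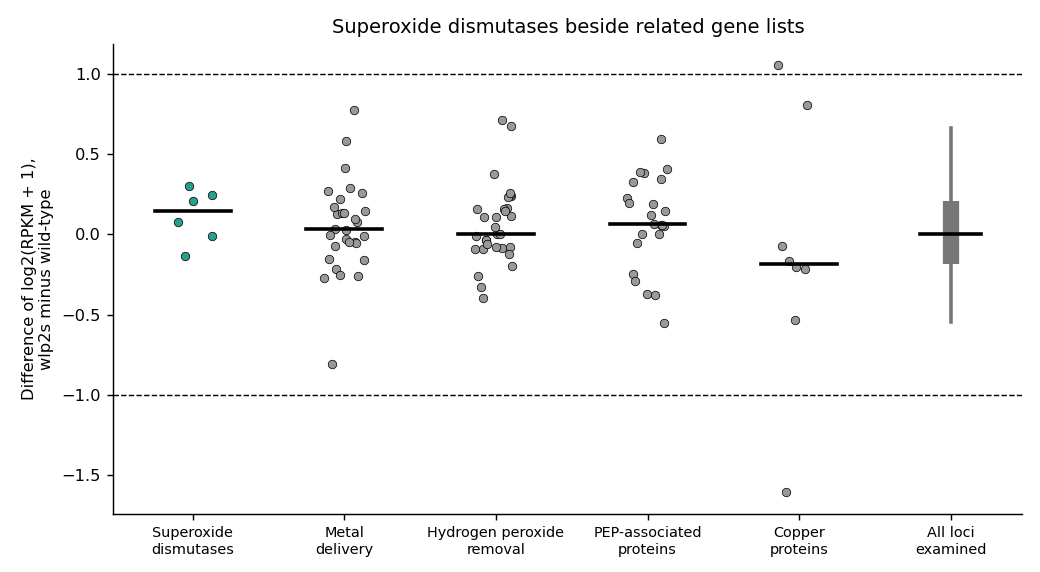
Difference of log2(RPKM + 1), *wlp2s* minus wild-type, for each SOD locus and for each locus of the related lists, with the iron SOD loci left out of the PEP-associated list; horizontal bars are medians and dashed lines the size rule. The thick and thin bars at the right span the middle 50% and the 5th to 95th percentiles of all 18639 loci, and the 6 SOD loci fall between -0.13 and 0.30.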

How the data were processed

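Leaf RNA was sequenced single end on an Illumina HiSeq2500. TopHat, Cufflinks and Cuffdiff are listed in the submitters' processing notes, with no versions. The counting tool, genome build and annotation release are not given in the sources used here. The authors deposited estimated counts for 36450 transcript models, in part fractions, and RPKM values beside them. With the library's summed counts as depth, each RPKM gave a whole model length (tolerance 0.001) at 100% of models, and these lengths are the ones printed. A second table holds the authors' own fold changes, P-values and FDR and 4 further per-library columns headed with other names, and it was not used.

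Models of a locus were summed, which gave whole counts at all 6 members. The difference of log2(RPKM + 1) was taken over loci with at least 1 RPKM in at least 1 library. Ratios are counts scaled to depth with exact 95% binomial intervals, and pairs of members were compared by the conditional odds ratio. Reads carry no molecular identifiers, so intervals cover counting error only. Chromosomes were read from the locus IDs. The reference gene table matched 0 of these IDs, so no coordinates or sequences are given.

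The members and lists were chosen with earlier results of these data known. Named genes are the members, other annotated SOD loci, *WLP2*, and from each list the loci past the size rule with at least 5 RPKM, or else the locus farthest from 0. LOC_Os04g48410, LOC_Os06g46310, LOC_Os05g22614 and the chaperonin 20, tracking factor and squamosa loci were singled out after their values were seen. So were the thioredoxin z, fructokinase-like, laccase, heavy metal atpase, plastocyanin and nitrate transporter loci, LOC_Os03g05620 and LOC_Os01g41710. Python 3.11.15, numpy 2.4.6, pandas 2.3.3, scipy 1.17.1 and matplotlib 3.10.9 were used. The procedure was tested on simulated data.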

Additional observations from a re-analysis of the deposited data

How the results depend on the processing

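The 6 SOD loci gave 0 past the size rule under each of 9 alternatives, namely pseudocounts of 0.1 and 5, no filter or at least 5 RPKM, scaling by the median ratio or by TMM, the model with the most counts, a 1.5-fold rule, and loci with whole-number counts. Their differences kept their sign except at LOC_Os05g25850, which was above 0 with the model with the most counts (0.07) and below 0 otherwise. No filter, at least 5 RPKM and whole-number counts could not change these differences, since all 6 loci exceed 5 RPKM and have whole counts. The 1.5-fold rule also leaves the differences as they are. On the log2 scale the summed SOD difference was 0.17 with the deposited depth, 0.18 with the median ratio and 0.16 with TMM. Outside the family, the metal delivery, hydrogen peroxide removal and PEP-associated lists had 1 locus each past the rule with a pseudocount of 0.1, and 2, 2 and 1 with the 1.5-fold rule. The copper protein list, with 2 loci past the rule, had 3 with a pseudocount of 0.1, 3 with the 1.5-fold rule, 0 with a pseudocount of 5 and 0 with at least 5 RPKM. Over all loci, 522 passed the rule, against 1276 with a pseudocount of 0.1, 120 with 5, 269 with at least 5 RPKM, 2005 with the 1.5-fold rule and 299 with whole-number counts. Depth limits the ratios of members other than LOC_Os03g22810, whose counting intervals are wider. No paired analysis was possible because each genotype has 1 library.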

Other observations

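The transcript models of the copper chaperone locus LOC_Os04g48410 had ratios on either side of 1. The first model (1213 bases) was at 67.1 RPKM in *wlp2s* and 58.2 RPKM in wild-type (ratio 1.15, 1.03 to 1.28), and the second (1212 bases) was at 21.4 RPKM in *wlp2s* and 24.5 RPKM in wild-type (ratio 0.874, 0.730 to 1.04). The first model held 75.8% of the counts of the locus in *wlp2s* (exact 95% binomial interval 73.0 to 78.4%) and 70.4% in wild-type (67.4 to 73.4%). Part of these reads was divided between the models, so the shares depend on that division. The models of LOC_Os07g46990 had ratios of 1.13 (0.967 to 1.31) and 1.28 (1.06 to 1.55).

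LOC_Os06g02500, the member with the largest difference, was nearest in level to LOC_Os12g06670 (ACT-like protein tyrosine kinase family protein), LOC_Os11g14140 (galactose oxidase/kelch repeat superfamily protein) and LOC_Os03g55030 (UDP-glycosyltransferase superfamily protein) among 14898 annotated loci. The measure was the Euclidean distance in log2(RPKM + 1) over 2 libraries, at most 0.034 for these 3, and it describes similar levels only.

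The laccase 7 locus LOC_Os01g63190 had 0 counts in *wlp2s* and 38 counts in wild-type. It passed the filter on low levels only through wild-type, at 2.05 RPKM, and was singled out after its values were seen. It therefore had to differ, and no interval is read for it. Its locus number on chromosome 1 lies close before that of *WLP2*, LOC_Os01g63220, and any connection between these loci was not tested.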
